A study of Mus musculus with 18 samples.

Results

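The genes described here are 8 T follicular genes, namely Cxcr5, Pdcd1, Bcl6, Tox2, Sostdc1, Angptl2, Sh2d1a and Slamf6, followed in sorted mouse regulatory T cells (Treg). They were taken by name from a table of 23420 genes, and 8 of 8 were found and were high enough to be tested. Their levels were measured by RNA-seq in 18 libraries, which form 6 groups of 3. The effector groups are fl/fl (written FCre x C1fl/fl in the labels), fl/+ (FCre x C1fl/+) and +/+ (FCre x C1+/+), and the resting groups have the same 3 genotypes. FCre is common to every group, the +/+ group included, so no group without it was compared. The labels give no age, sex or sorting gate. They number the libraries of a group 1 to 3 and call that number a batch, and they do not say that the 3 are separate animals, so the p-values below measure only the spread between these samples.

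Follicular regulatory T cells are Foxp3-expressing cells that enter the B cell follicle and restrain the germinal centre reaction. They share with T follicular helper cells the chemokine receptor CXCR5, which responds to CXCL13 made in the follicle, the inhibitory receptor PD-1 and the transcriptional repressor BCL6. Contact with B cells in the follicle is steadied by receptors of the SLAM family, which signal through the adaptor SAP. In RefSeq (GRCm38.p6) Cxcr5 lies at chr9:44511787-44526444, Pdcd1 at chr1:94038305-94052553, Bcl6 at chr16:23965050-23988866, Tox2 at chr2:163203058-163324172, Sostdc1 at chr12:36314169-36318452, Angptl2 at chr2:33215951-33247725, Sh2d1a at chrX:42502565-42522097 and Slamf6 at chr1:171917458-171948958.

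The gene promoters are shown because antigen receptor signals reach the genome through NF-kB, NFAT and AP-1. RefSeq (GRCm38.p6) promoter windows were matched by symbol for 5 of 8 genes, namely Pdcd1, Bcl6, Tox2, Angptl2 and Slamf6, with 10 windows in all. Each window below is the 250 bases before an annotated start, written 5′ to 3′ on the strand of the gene, and capitals mark matches on either strand to an NF-kB motif, read as GGG and CC with any 5 bases between them. Pdcd1 is at chr1:94052554-94052803, minus strand, the first Bcl6 window at chr16:23988853-23989102, minus strand, Angptl2 at chr2:33215711-33215960, plus strand and Slamf6 at chr1:171917212-171917461, plus strand. These 4 were chosen as a receptor, a repressor, a secreted product and a SLAM receptor.
Pdcd1: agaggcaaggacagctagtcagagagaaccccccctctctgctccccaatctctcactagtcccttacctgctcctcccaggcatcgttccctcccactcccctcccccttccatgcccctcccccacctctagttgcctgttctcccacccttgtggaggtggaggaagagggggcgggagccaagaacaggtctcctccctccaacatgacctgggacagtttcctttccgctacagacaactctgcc
Bcl6: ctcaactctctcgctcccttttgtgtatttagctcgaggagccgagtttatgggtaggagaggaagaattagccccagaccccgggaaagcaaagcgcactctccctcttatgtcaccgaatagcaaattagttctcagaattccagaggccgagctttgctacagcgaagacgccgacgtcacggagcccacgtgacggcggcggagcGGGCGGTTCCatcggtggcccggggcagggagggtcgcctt
Angptl2: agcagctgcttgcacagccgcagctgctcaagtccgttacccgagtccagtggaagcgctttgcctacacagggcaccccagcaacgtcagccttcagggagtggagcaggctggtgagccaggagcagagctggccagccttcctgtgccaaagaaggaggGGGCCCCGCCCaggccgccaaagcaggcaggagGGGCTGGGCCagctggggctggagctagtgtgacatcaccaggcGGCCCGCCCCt
Slamf6: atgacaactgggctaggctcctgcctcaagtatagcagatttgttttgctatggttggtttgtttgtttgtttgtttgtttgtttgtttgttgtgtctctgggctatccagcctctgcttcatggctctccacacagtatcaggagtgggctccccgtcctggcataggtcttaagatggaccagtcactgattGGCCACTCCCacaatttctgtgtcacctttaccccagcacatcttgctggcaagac

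The window of Angptl2 held 4 NF-kB matches, some of which overlap in 3 capital stretches, while those of Bcl6 and Slamf6 held 1 each and that of Pdcd1 held 0. The first Tox2 window, which is 75.2% G and C, held 8 matches in 4 stretches, where letters that match on both strands were counted on each. Of 32851 promoter windows of the same length, 45.8% held at least 1 such match, and their median G and C content was 52.4%. A match to the AP-1 letters TGANTCA was found in 0 of these 5 genes and in 6.75% of all windows. The NFAT letters GGAAA, present in 55.6% of all windows, occurred 2 times before Pdcd1 and 1 time before the first Bcl6 start. They also occurred 3 times in the second Bcl6 window and 1 time each in Tox2 windows 4 and 5, which nearly coincide. The first Bcl6 window also held 1 E-box (CACGTG, 6.02% of all windows) and 1 match to the STAT letters TTCNNNGAA (7.02%), and the second Bcl6 window held 3 STAT matches. Overlaps between these motifs were not removed. The TCF1/LEF1 letters CTTTGA or CTTTGT (27.6% of all windows) were matched in the second Bcl6 window and in Tox2 windows, and the FOXO letters TGTTTAC (3.17%) in none of the 5 genes. A match describes the letters of a window and not a bound site.

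Library totals were 1658073 to 5756903 expected counts, and levels below are CPM, counts scaled to a common library total adjusted by TMM. Foxp3, which defines Treg, averaged 239 to 325 CPM over the 6 groups. Summed over a list of 9 B cell markers, the libraries held 16.9 to 29.9 CPM in fl/fl effector, 24.8 to 54.4 in fl/+ effector, 30.3 to 40.7 in +/+ effector, 18.8 to 24.5 in fl/fl resting, 12.9 to 62.9 in fl/+ resting and 9.64 to 99.9 in +/+ resting cells. Follicular genes were uneven inside groups, and 2 such libraries are named here. In fl/fl resting replicate 1 Tox2 was at 6.26 CPM, against 0 and 0.295 in the other two, and in +/+ effector replicate 3 Cxcr5 was at 72.4 CPM, against 164 and 199. For some genes results are given with and without these libraries. Other effector libraries were also extreme. Replicate 2 of fl/fl was lowest or tied lowest for 8 of 8 genes, and replicate 2 of +/+ was highest for 6 of 8. Leaving out +/+ effector replicate 3 enlarged the effector fl/fl minus +/+ difference of Cxcr5, Pdcd1, Bcl6 and Tox2. For these genes that difference without either replicate 2 is not given.

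**Figure D1:**
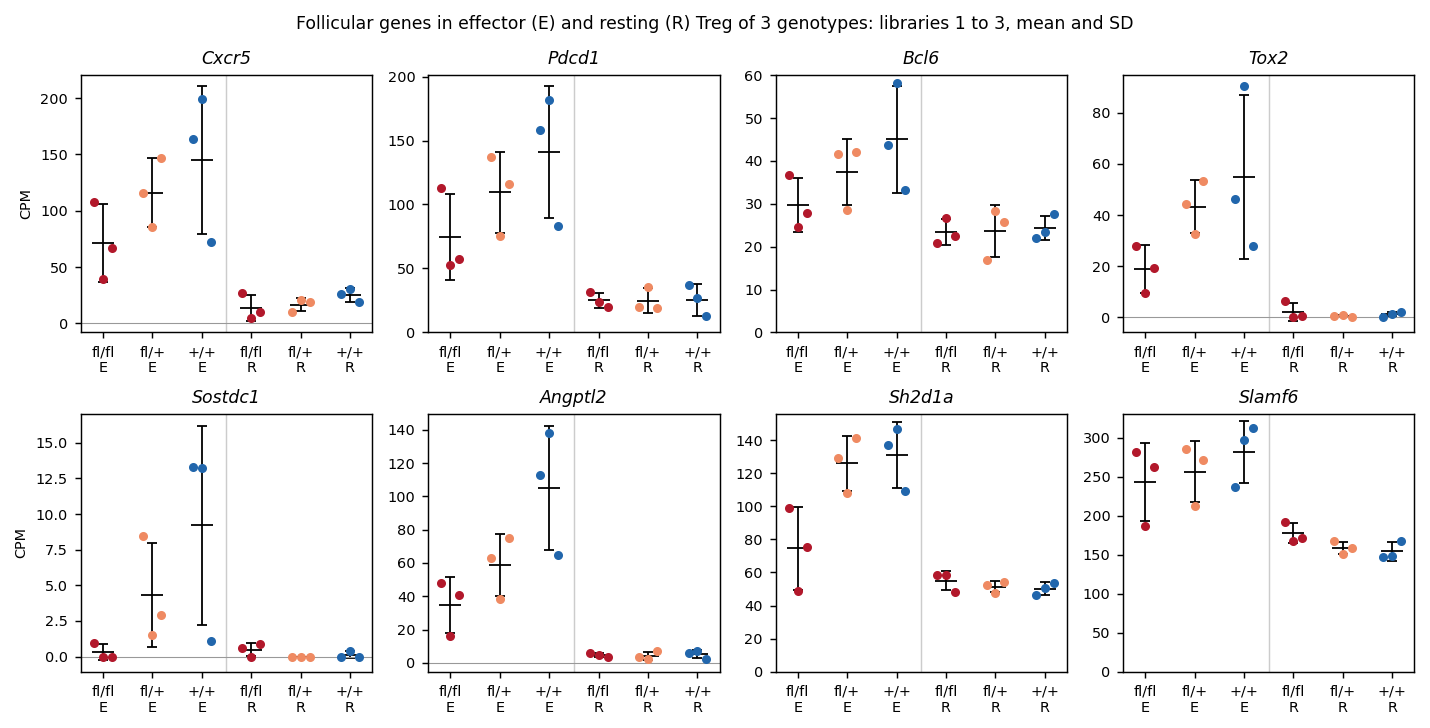
Level in CPM (vertical axis) of each of the 8 genes in every library, by genotype in effector (E) and resting (R) cells, with libraries 1 to 3 as points from left to right and the mean with SD as bars. Effector points of Cxcr5, Pdcd1, Tox2 and Angptl2 lie above the resting points in every genotype, while those of Bcl6, Sh2d1a and Slamf6 overlap in fl/fl.

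The first comparison set effector against resting cells within each genotype. All 8 genes were called higher in effector cells of fl/+ and all 8 in +/+, and 4 of 8 were called higher in fl/fl, namely Cxcr5, Pdcd1, Tox2 and Angptl2. A gene was called at an adjusted p under 0.05 in edgeR's quasi-likelihood test over 10630 tested genes. Of all tested genes 5.01% were called higher in fl/fl, 9.72% in fl/+ and 9.49% in +/+. The median log2 change of the 8 genes was 1.03 in fl/fl, 2.52 in fl/+ and 2.47 in +/+, and that of all tested genes was -0.01 in each. With Sostdc1 at the bound that its group at 0 allows, the fl/+ median was again 2.52. Effector and resting values did not overlap for 4 of 8 genes in fl/fl, 8 of 8 in fl/+ and 8 of 8 in +/+, where 11.7%, 18% and 16.6% of all tested genes were higher without overlap. For Sostdc1 in +/+ the gap lay near the floor, at 1.11 CPM (3 counts) against 0.405 CPM (1 count). Effector cells were above resting cells in each of the 3 batches for 5 of 8 genes in fl/fl, 8 of 8 in fl/+ and 8 of 8 in +/+, against 20.8%, 26.6% and 25.1% of all tested genes. Tox2 passed the filter on low values through the effector groups and 1 fl/fl resting library, and Sostdc1 through 3 effector libraries, so their calls between states were favoured by the filter. In bulk samples, fewer cells of a type and less RNA per cell cannot be told apart.

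**Figure D2:**
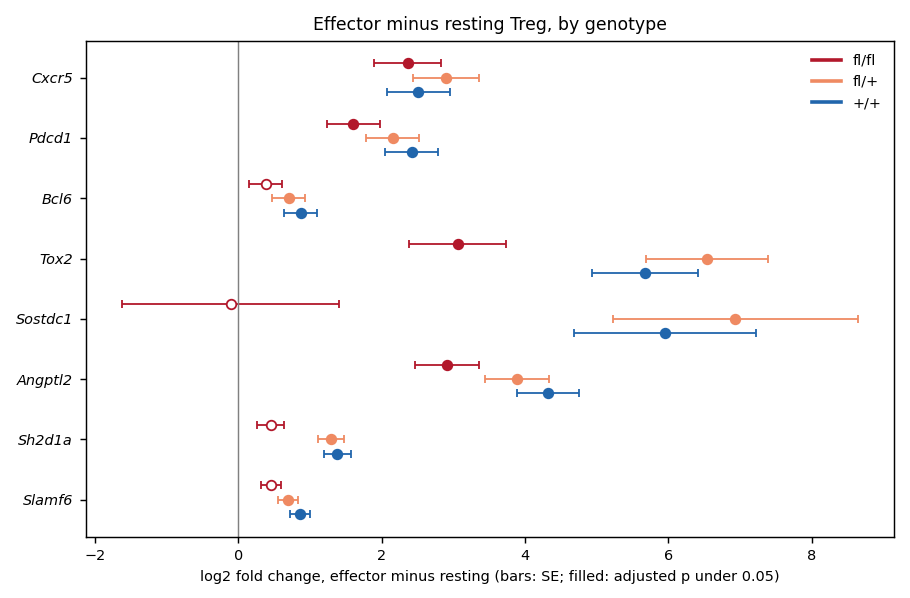
Log2 fold change between effector and resting cells (horizontal axis, effector minus resting) of each gene in fl/fl, fl/+ and +/+, with bars for the standard error and filled points for an adjusted p under 0.05 in edgeR's quasi-likelihood test. In fl/fl the points of Bcl6, Sostdc1, Sh2d1a and Slamf6 are open, and every point of fl/+ and +/+ is filled.

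Cxcr5 encodes the receptor that brings T cells into the follicle. In effector cells it stood at 108, 39.3 and 67.1 CPM in fl/fl, at 116, 85.2 and 147 in fl/+ and at 164, 199 and 72.4 in +/+. In resting cells it stood at 26.8, 5.05 and 9.74 CPM in fl/fl, at 9.69, 20.5 and 19.3 in fl/+ and at 26.4, 30.8 and 18.6 in +/+. Every effector library was above every resting one of its genotype, but the 3 effector genotypes overlapped. Cxcr5 rose between states by 2.36 in fl/fl (log2, SE 0.47, adjusted p = 0.00461 by edgeR's quasi-likelihood test), 2.89 in fl/+ (SE 0.46, adjusted p = 0.000229) and 2.51 in +/+ (SE 0.44, adjusted p = 0.000469). In effector cells the fl/fl minus +/+ difference was -0.99 (SE 0.4, adjusted p = 0.188), and it was not called. Within batches 1, 2 and 3 it was -0.6, -2.33 and -0.11 (log2 of CPM + 0.5), and it was largest in the libraries numbered 2. Without +/+ effector replicate 3 it was -1.31 (adjusted p = 0.0539), and without fl/fl resting replicate 1 the fl/fl rise was 3.27 (adjusted p = 0.000787). B cells also express Cxcr5, and the summed B cell markers did not overlap between fl/fl and +/+ effector libraries. Cd79b, a part of the B cell receptor, was at a mean of 10.7 CPM in fl/fl and 20.8 in +/+ effector cells and Cd22, a B cell lectin, at 7.48 in fl/fl and 12 in +/+, while Pax5, which defines B cells, was at 0.335 in fl/fl and 0 in +/+. In each effector group the library with the highest B cell sum had the highest Cxcr5, with sums of 29.9 CPM in fl/fl, 54.4 in fl/+ and 40.7 in +/+. In no resting group was this so, and the highest sum of all, 99.9 CPM in +/+ resting replicate 3, went with the lowest Cxcr5 of that group. The part of B cells in the Cxcr5 difference was not tested.

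Pdcd1 encodes PD-1, which dampens antigen receptor signals when it binds its ligands. In effector cells it was at 113, 52.7 and 57.4 CPM in fl/fl, at 137, 75.1 and 116 in fl/+ and at 158, 182 and 83.2 in +/+. In resting cells it was at 31.6, 23.8 and 20.1 CPM in fl/fl, at 20, 35.8 and 18.8 in fl/+ and at 37.3, 26.7 and 12.6 in +/+. The resting groups lay on each other, with means of 25.2 CPM in fl/fl, 24.9 in fl/+ and 25.6 in +/+, and all effector libraries lay above them. The rise was 1.6 in fl/fl (SE 0.37, adjusted p = 0.0123 by edgeR's test), 2.15 in fl/+ (SE 0.37, adjusted p = 0.000426) and 2.42 in +/+ (SE 0.37, adjusted p = 0.000139). The fl/fl call was lost without fl/fl effector replicate 1 (adjusted p = 0.14), resting replicate 2 (0.0556) or resting replicate 3 (0.0688). In effector cells fl/fl minus +/+ was -0.88 (SE 0.33, adjusted p = 0.162), with -0.48, -1.78 and -0.53 within batches. That difference passed the threshold without fl/fl effector replicate 1, where it was -1.36 with an adjusted p of 0.0291. Without +/+ effector replicate 3 it was -1.14 (adjusted p = 0.0522).

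Bcl6 encodes the repressor that defines the follicular programme. Effector Bcl6 was at 36.8, 24.5 and 27.8 CPM in fl/fl, at 41.7, 28.5 and 42.1 in fl/+ and at 43.7, 58.1 and 33.3 in +/+. In resting cells it was at 20.9, 26.7 and 22.4 CPM in fl/fl, at 16.8, 28.3 and 25.8 in fl/+ and at 22.1, 23.5 and 27.6 in +/+. The spread between states was thus small beside that of Cxcr5, and fl/fl effector and resting libraries overlapped. Bcl6 rose by 0.7 in fl/+ (SE 0.23, adjusted p = 0.0385 by edgeR's test) and by 0.87 in +/+ (SE 0.23, adjusted p = 0.0113). In fl/fl its change was 0.38 (SE 0.23, adjusted p = 0.41). The +/+ call was lost without resting replicate 1 (adjusted p = 0.056) or effector replicate 2 (0.0691). The fl/+ call was lost without resting replicate 1 (0.232), resting replicate 3 (0.0502), effector replicate 1 (0.121) or effector replicate 3 (0.132). In effector cells fl/fl minus +/+ was -0.56 (SE 0.22, adjusted p = 0.189), with -0.25, -1.23 and -0.25 within batches. Without +/+ effector replicate 3 that difference was -0.73 (adjusted p = 0.0726).

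Tox2 encodes an HMG-box factor that promotes follicular helper T cells in mice. Effector Tox2 was at 27.9, 9.39 and 19.3 CPM in fl/fl, at 44.2, 32.4 and 53.2 in fl/+ and at 46.3, 90.4 and 27.7 in +/+. In resting cells it was at 6.26, 0 and 0.295 CPM in fl/fl, at 0.431, 0.787 and 0 in fl/+ and at 0.254, 1.22 and 1.97 in +/+. Resting cells were thus near the detection floor save for fl/fl replicate 1. Over the 3 libraries of a group, 205 effector counts stood against 22 resting counts in fl/fl, 612 against 4 in fl/+ and 465 against 9 in +/+. Scaled to the totals, these gave ratios of 9.02 (5.8 to 14.7) in fl/fl, 102 (39.4 to 374) in fl/+ and 49.5 (25.9 to 109) in +/+, with 95% intervals that cover counting error only. The fitted log2 rise was 3.06 in fl/fl (SE 0.68, adjusted p = 0.00956 by edgeR's test), 6.54 in fl/+ (SE 0.85, adjusted p = 4.05e-05) and 5.67 in +/+ (SE 0.74, adjusted p = 3.6e-05). Without fl/fl resting replicate 1 the fl/fl rise was 6.62 (adjusted p = 0.000573). The fl/fl call was lost without effector replicate 1 (0.0938) or resting replicate 3 (0.0604), and also with only the compared groups in the fit (0.057). In effector cells fl/fl minus +/+ was -1.46 (SE 0.48, adjusted p = 0.104), with -0.72, -3.2 and -0.51 within batches. It passed the threshold without fl/fl effector replicate 1 (-1.97, adjusted p = 0.0486) or +/+ effector replicate 3 (-1.78, adjusted p = 0.0377).

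Sostdc1 encodes a secreted antagonist of BMP and Wnt signals that a subset of mouse follicular helper T cells makes. Effector cells had Sostdc1 at 0.964, 0 and 0 CPM in fl/fl, at 8.44, 1.55 and 2.9 in fl/+ and at 13.3, 13.2 and 1.11 in +/+. In resting cells it was at 0.596, 0 and 0.886 CPM in fl/fl, at 0 in each fl/+ library and at 0, 0.405 and 0 in +/+. It was the scarcest of the 8 genes, and reads were found mainly in fl/+ and +/+ effector libraries. The summed counts were 5 effector against 5 resting in fl/fl, 69 against 0 in fl/+ and 91 against 1 in +/+. The ratio between states was 0.968 in fl/fl (95% counting interval 0.223 to 4.21) and 87.2 in +/+ (15.3 to 3480), and in fl/+ it was at least 15.3-fold higher in effector cells, set against a floor of 3 counts over the group. It was called higher between states in fl/+ (adjusted p = 0.00856 by edgeR's test) and +/+ (adjusted p = 0.00327), and not in fl/fl (adjusted p = 0.98). The fl/+ call was lost without resting replicate 1 (0.0516). In effector cells 5 counts in fl/fl stood against 91 in +/+, a ratio of 0.0522 (0.0165 to 0.126), and the fitted log2 difference was -4.17 (SE 1.01, adjusted p = 0.0356). Within batches the difference was -3.24, -4.78 and -1.69.

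Angptl2 encodes a secreted angiopoietin-like protein. Effector Angptl2 was at 47.8, 16.1 and 40.5 CPM in fl/fl, at 62.7, 38.6 and 75 in fl/+ and at 113, 138 and 64.7 in +/+. In resting cells it was at 5.96, 4.69 and 3.25 CPM in fl/fl, at 3.23, 2.36 and 7.04 in fl/+ and at 6.09, 6.89 and 2.37 in +/+. All fl/fl effector libraries lay below all +/+ ones, with fl/+ between and overlapping both. Angptl2 rose between states by 2.91 in fl/fl (SE 0.45, adjusted p = 0.00073 by edgeR's test), 3.89 in fl/+ (SE 0.45, adjusted p = 1.77e-05) and 4.32 in +/+ (SE 0.43, adjusted p = 5.67e-06). Between effector cells it fell by 1.57 on the log2 scale in fl/fl relative to +/+ (SE 0.33, adjusted p = 0.0144), which is a fold of 0.336, and the difference was -1.23, -3.06 and -0.67 within batches.

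Slamf6 encodes the SLAM receptor Ly108, and Sh2d1a encodes SAP, the adaptor that binds its tail. Slamf6 in effector cells was at 282, 187 and 262 CPM in fl/fl, at 286, 213 and 271 in fl/+ and at 237, 297 and 312 in +/+. Slamf6 in resting cells was at 192, 168 and 172 CPM in fl/fl, at 167, 151 and 158 in fl/+ and at 147, 148 and 168 in +/+. It was the most abundant of the 8 genes by CPM, and its effector genotypes overlapped throughout. It rose by 0.69 in fl/+ (SE 0.14, adjusted p = 0.00177 by edgeR's test) and by 0.86 in +/+ (SE 0.14, adjusted p = 0.000281). In fl/fl its change was 0.46 (SE 0.14, adjusted p = 0.0575). DESeq2 called the fl/fl change (0.47, adjusted p = 0.0262). With the batch number as a replicate block the fl/fl change of Slamf6 was also called (0.45, adjusted p = 0.0316), and with a block within genotype as well (0.44, adjusted p = 0.00582). In effector cells fl/fl minus +/+ was -0.2 (SE 0.14, adjusted p = 0.509), with 0.25, -0.66 and -0.25 within batches.

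Sh2d1a in effector cells was at 98.9, 49 and 75.6 CPM in fl/fl, at 129, 108 and 141 in fl/+ and at 137, 147 and 109 in +/+. Sh2d1a in resting cells was at 58.2, 58.5 and 48.4 CPM in fl/fl, at 52.3, 47.6 and 54 in fl/+ and at 46.4, 50.7 and 53.7 in +/+. The fl/fl effector libraries lay below those of both other genotypes and overlapped the resting range. Sh2d1a rose by 1.29 in fl/+ (SE 0.18, adjusted p = 7.81e-05 by edgeR's test) and by 1.38 in +/+ (SE 0.19, adjusted p = 4.28e-05). Its fl/fl change was 0.45 (SE 0.19, adjusted p = 0.175). Without fl/fl effector replicate 2 both fl/fl changes were called, at 0.69 for Sh2d1a (adjusted p = 0.00917) and 0.62 for Slamf6 (adjusted p = 0.00603). In effector cells Sh2d1a fell by 0.8 on the log2 scale in fl/fl relative to +/+ (SE 0.18, adjusted p = 0.0223), a fold of 0.575, with -0.47, -1.58 and -0.53 within batches.

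The second comparison set the genotypes against each other within effector cells. In fl/fl relative to +/+, 3 of 8 follicular genes were called lower, namely Sostdc1, Angptl2 and Sh2d1a, and 1.65% of all tested genes were. Sostdc1 passed the filter on low values through 2 +/+ and 1 fl/+ effector libraries and 0 fl/fl libraries, so its call here, as in the other comparisons of fl/fl effector cells, was favoured by the filter. The same 3 were lower without overlap, as were 10.2% of all tested genes. For Sostdc1 this gap lay at the floor. The lowest +/+ library stood at 1.11 CPM from 3 counts, and the highest fl/fl library at 0.964 CPM from 5 counts. All 8 log2 differences were negative, with a median of -0.93 for the 8 genes and 0.01 for all tested genes. In each of the 3 batches 7 of 8 were lower in fl/fl, Slamf6 being the exception, and 19.7% of all tested genes were lower in all 3. At an unadjusted p under 0.05 the count was 7 of 8, beside 17.3% of all tested genes. Each of the 3 calls was lost without certain single libraries. Sostdc1 was lost without +/+ effector replicate 1 (adjusted p = 0.183), +/+ replicate 2 (0.129), fl/fl replicate 2 (0.172) or fl/fl replicate 3 (0.101). Angptl2 was lost without +/+ replicate 1 (0.0893), +/+ replicate 2 (0.0958) or fl/fl replicate 2 (0.104), with only the compared groups (0.0524) and on log2(FPKM + 0.1) values (0.076). Sh2d1a was lost without +/+ replicate 1 (0.115), +/+ replicate 2 (0.11), fl/fl replicate 2 (0.12) or fl/fl replicate 3 (0.0643), and with only the compared groups (0.103). DESeq2 also called these 3, and over all tested genes it called 455 in either direction, against 299 by edgeR. Without +/+ replicate 3 each of the 3 was called, with adjusted p of 0.00445, 0.00316 and 0.00837 for Sostdc1, Angptl2 and Sh2d1a.

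**Figure D3:**
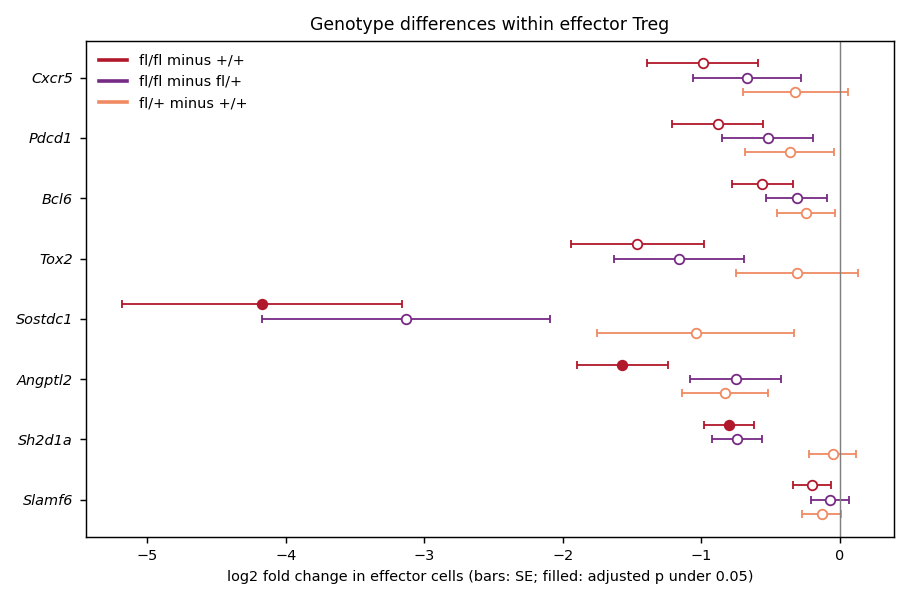
Log2 fold change between genotypes in effector cells (horizontal axis) of each gene, with bars for the standard error and filled points for an adjusted p under 0.05 in edgeR's quasi-likelihood test. The 3 filled points are fl/fl minus +/+ for Sostdc1, Angptl2 and Sh2d1a, and every point lies left of 0.

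Between fl/fl and fl/+ effector cells, 0 of 8 follicular genes were called in edgeR's test, beside 0.677% of all tested genes called in either direction. At an unadjusted p under 0.05 the count was 4 of 8, where 11.8% of all tested genes stood. DESeq2 called 1 of the 8, Sh2d1a (adjusted p = 0.0103), and over all tested genes 178, against 72 by edgeR. The difference of Sh2d1a was -0.74 (SE 0.18, adjusted p = 0.0603). A replicate block made it -0.76 and called (adjusted p = 0.0278). Tox2 differed by -1.16 (SE 0.47, adjusted p = 0.311) and Sostdc1 by -3.13 (SE 1.04, adjusted p = 0.196). The fl/fl libraries of these 3 genes lay below the fl/+ ones without overlap, as did 8.45% of all tested genes. For Sostdc1 the gap was again near the floor, at 0.964 CPM (5 counts) in fl/fl against 1.55 CPM (6 counts) in fl/+. All 8 genes were lower in fl/fl in each batch, and 19.6% of all tested genes were. Between fl/+ and +/+ effector cells 0 of 8 were called by edgeR or DESeq2, with 1 of 8, Angptl2, at an unadjusted p under 0.05. Angptl2 differed there by -0.83 (SE 0.31, adjusted p = 0.702), and the other 7 by -1.04 to -0.05. The background was 0.00941% called in either direction and 5.47% at the unadjusted p. Comparisons between genotypes share libraries, so their values are set side by side and are not separate evidence.

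Resting cells showed no called follicular gene in any genotype comparison. The count was 0 of 8 for fl/fl minus +/+, fl/fl minus fl/+ and fl/+ minus +/+ by edgeR and by DESeq2, and 0 of 8 also at an unadjusted p under 0.05. Of all tested genes 0.696% were called for fl/fl minus +/+, 0.0282% for fl/fl minus fl/+ and 0.0847% for fl/+ minus +/+, and 8.21%, 4.83% and 6.29% stood under the unadjusted p. For Cxcr5 fl/fl minus +/+ was -0.83 (SE 0.51, adjusted p = 0.768), the lowest of the 8 in that comparison, and -1.74 (adjusted p = 0.224) without fl/fl resting replicate 1. For Tox2 it was positive and not called (adjusted p = 0.899), and -2.41 (adjusted p = 0.788) without that library. Slamf6 was higher in fl/fl than fl/+ resting cells without overlap, by 0.16 (SE 0.14), as were 4.9% of all tested genes.

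Whether the change between states itself differed between genotypes was tested as an interaction, and 0 of 8 genes were called by edgeR, or by DESeq2, in any of the 3 interactions. For fl/fl minus +/+ 3 of 8 had an unadjusted p under 0.05, namely Tox2, Sostdc1 (favoured by the filter, as above) and Sh2d1a, and 0% of all tested genes were called while 8.97% stood under the unadjusted p. For fl/fl minus fl/+ the same 3 genes did, beside 5.89% of all tested genes (0.00941% called), and for fl/+ minus +/+ 0 of 8 did, beside 3.23% (0.0188% called). The largest interaction relative to its error was that of Sh2d1a, which rose less in fl/fl than in +/+ by a difference of -0.93 (SE 0.26, adjusted p = 0.344). With the replicate block within genotype it was -0.97 and called (adjusted p = 0.0346), as it was without fl/fl effector replicate 1 (-1.23, adjusted p = 0.0314). The interaction of Tox2 was -2.6 (SE 1.23, adjusted p = 0.549) and turned to 0.95 without fl/fl resting replicate 1. That of Cxcr5 was -0.16 (SE 0.65), and 0.75 without that library. The calls between states in fl/+ and +/+ that fl/fl lacked are therefore not shown to differ between genotypes by the test without a block.

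The effector libraries were also ranked by the level of each gene, from 1 for the highest of 9 to 9 for the lowest. Replicate 2 of fl/fl was lowest for 8 of 8 genes, tied with replicate 3 for Sostdc1, and replicate 3 had a median rank of 8. Replicate 1 of fl/fl had a median rank of 5.5. Among +/+ libraries replicate 2 was highest for 6 of 8 genes, replicate 1 had a median rank of 2 and replicate 3 one of 6. The 8 genes thus shared much of their order over libraries, including the order inside a genotype. Slamf6 was the exception, since it was highest in +/+ replicate 3. Ranks share the library totals and describe these libraries only.

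**Figure D4:**
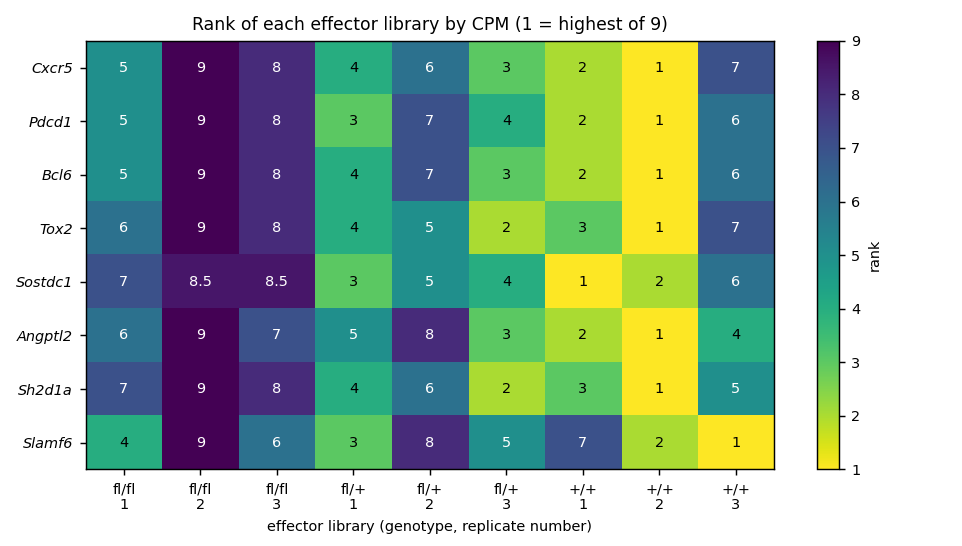
Rank by CPM of each of the 9 effector libraries (columns, genotype and replicate number) for each gene (rows), with 1 for the highest and 9 for the lowest library. The column of fl/fl replicate 2 holds 9 for 7 genes and a tie at 8.5 for Sostdc1, and that of +/+ replicate 2 holds 1 for 6 genes.

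The order of the 6 groups by mean CPM was similar for all genes. The +/+ effector group was first and fl/+ effector second for 8 of 8, and fl/fl effector came next for 7 of 8, while for Sostdc1 fl/fl resting stood between. The libraries of +/+ effector overlapped those of fl/+ effector in all 8 genes. Those of fl/+ effector did not overlap the group below for Tox2, Sostdc1 and Sh2d1a, and those of fl/fl effector did not overlap the highest resting group for Cxcr5, Pdcd1, Tox2 and Angptl2. Neighbours among the resting groups overlapped except for Slamf6, where fl/fl was above fl/+. Beside the shares given above, none over all tested genes is given for this order or these overlaps, so both describe the 8 genes only. Per length of transcript, in the FPKM of the authors, Sh2d1a was the most abundant of the 8 in +/+ effector cells at a mean of 187 ± 24.3, followed by Slamf6 at 124 ± 15.8, Pdcd1 at 79.3 ± 28.1 and Cxcr5 at 59.5 ± 26.2 (SD, n = 3). Tox2 at 35.6 ± 19.9 and Angptl2 at 32.4 ± 11.1 differed by less than their SDs, and Bcl6 at 14.6 ± 3.79 and Sostdc1 at 5.74 ± 4.38 were lowest.

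Other genes of the follicular programme were counted from lists. Of all tested genes, whose median was 0.01, 1.17% were called higher in fl/fl relative to +/+ effector cells, and between states 1.33% were called lower in fl/fl, 6.58% in fl/+ and 6.5% in +/+. Of 11 tested follicular transcription factors, 3 were called lower and 1 higher in fl/fl relative to +/+ effector cells, with a median log2 difference of -0.43. Batf, an AP-1 family factor, was at 54.3 ± 10.9 CPM in fl/fl and 96.5 ± 13.5 in +/+ (SD, n = 3 each), a log2 difference of -0.8 (adjusted p = 0.00904 by edgeR's test, as for the genes that follow). Maf, which promotes IL-21 and IL-10 production, was at 29.9 ± 16 in fl/fl and 94.5 ± 34.8 in +/+ (-1.62, adjusted p = 0.037), a call that DESeq2 did not make (adjusted p = 0.178). Nfatc1 was lower by -0.78 (adjusted p = 0.0125), and Lef1, which is high in naive-like T cells, was higher by 1.06 (adjusted p = 0.00425). Between states in +/+ cells Batf, Maf and Nfatc1 were among 6 of these 11 genes called higher, and Lef1 was the 1 called lower. In fl/fl cells 3 were called higher and 1 lower.

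Among 10 genes that oppose follicular differentiation, fl/fl effector cells had 1 called higher and 1 called lower relative to +/+. Prdm1, which encodes the BCL6 antagonist Blimp-1, was at 17 ± 10.4 CPM in fl/fl and 62.6 ± 24.1 in +/+ (-1.78, adjusted p = 0.00779). Klf2, which maintains S1pr1 and restrains follicular differentiation, was at 19.5 ± 6.19 in fl/fl and 5.56 ± 1.62 in +/+ (1.69, adjusted p = 0.0238). Of 5 tested genes that direct cells out of the follicle or to other zones, 3 were called higher in fl/fl and 1 lower. S1pr1 (1.28, adjusted p = 0.0215) and Ccr7 (0.68, adjusted p = 0.0371) were among those called higher, and Gpr183 was the 1 called lower (-0.66, adjusted p = 0.0338). In +/+ cells S1pr1 (-2.01, adjusted p = 8.86e-05) and Ccr7 (-0.82, adjusted p = 0.00223) were among 3 of the 5 called lower between states. In fl/fl cells the change of S1pr1 was -0.93 (adjusted p = 0.0509), and it was called with the replicate block (adjusted p = 0.0321). Of the 6 tested corepressors of BCL6, 0 were called in effector fl/fl relative to +/+ by edgeR and 0 by DESeq2, 1 had an unadjusted p under 0.05, and the median was 0.05.

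Of 6 ligands and relatives of PD-1, 3 were called lower in fl/fl relative to +/+ effector cells, with a median of -1.53. Ctla4 was at 163 ± 64.7 CPM in fl/fl and 407 ± 88.8 in +/+ (-1.31, adjusted p = 0.00425). Lag3 was at 80.6 ± 43.9 in fl/fl and 366 ± 122 in +/+ (-2.16, adjusted p = 0.00716). Havcr2 was at 0.802 ± 0.875 in fl/fl and 13.1 ± 4.31 in +/+ (-3.61, adjusted p = 0.0125). In resting cells 1 of these 6 was called lower in fl/fl relative to +/+, the PD-1 ligand gene Cd274, at 56.9 ± 3.61 in fl/fl and 91.6 ± 13.7 in +/+ (-0.69, adjusted p = 0.0496), and 2 were with the replicate block. Of 9 tested SLAM receptors and adaptors beside Slamf6 and Sh2d1a, 1 was called, Slamf1, at 90.2 ± 0.802 in fl/fl and 135 ± 17.1 in +/+ (-0.58, adjusted p = 0.0155). The median of that list was -0.07, and with the replicate block 2 of the 9 were called lower. Of 12 follicular receptors 1 was called lower, the costimulatory receptor Icos (-1.15, adjusted p = 0.0429, and 0.0582 with DESeq2), and 2 were with the block. Of 6 tested follicular products, secreted or on the cell surface, 2 were called lower, and 4 were with the block. The 2 were Il10, which is secreted (-4.37, adjusted p = 0.00119), and Tnfsf8, a membrane ligand (-0.74, adjusted p = 0.0191). Over all 10630 tested genes the block called 179 in either direction in resting fl/fl minus +/+, against 74 without it. In effector fl/fl minus +/+ it called 552, against 299 without it. Tox, a relative of Tox2, was at 114 ± 12.7 CPM in fl/fl and 154 ± 20.2 in +/+ (-0.43, adjusted p = 0.091, and 0.0419 with the block).

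Markers of other cells were set beside these values. The 4 markers of conventional follicular helper T cells summed to 131 to 177 CPM in fl/fl effector, 129 to 164 in fl/+ effector and 150 to 253 in +/+ effector cells. Of 3 tested, 1 was called lower in fl/fl relative to +/+, Tnfsf8 as above. Il21 was at -0.87 (adjusted p = 0.632), and Cd40lg went the other way, at 0.36 (adjusted p = 0.259). The 7 Treg markers summed to 2200 to 2830 CPM in fl/fl effector, 2700 to 3260 in fl/+ effector and 3100 to 3640 in +/+ effector cells. Of these, Ctla4 and Ikzf2 were called lower in fl/fl (Ikzf2 by -0.91, adjusted p = 0.0078), and Foxp3 was at 287 ± 97.2 CPM in fl/fl and 325 ± 136 in +/+ (-0.18, adjusted p = 0.785). The markers of CD8 T or NK cells summed to 19.5 to 47.2 CPM in fl/fl effector, 16 to 17.2 in fl/+ effector and 17 to 21.1 in +/+ effector cells. The 4 germinal centre B cell markers, which include S1pr2, summed to 24.8 to 31.4 CPM in fl/fl effector, 32.9 to 39.7 in fl/+ effector and 41.8 to 54.4 in +/+ effector cells. Nearly all of it was S1pr2, which the follicular receptor list also holds, at means of 27.5 CPM in fl/fl, 35.9 in fl/+ and 44.6 in +/+. Dendritic cell markers summed to 3.02 to 7.71 CPM in fl/fl effector, 5.79 to 8.54 in fl/+ effector and 5.17 to 8.46 in +/+ effector cells, and myeloid ones to 73.4 to 77.4, 69.2 to 98.5 and 91.7 to 103. Nearly all of the myeloid sum was Cst3, at means of 70.7 CPM in fl/fl, 83.5 in fl/+ and 91.7 in +/+ effector cells. Of the other myeloid markers, Itgam was at 2.48 in fl/fl and 0.704 in +/+, and Lyz2 at 1.66 in fl/fl and 4.12 in +/+. The part of any of these cells in the follicular values was not tested.

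For each of the 8 genes the genes most alike over the 6 group means of log2 CPM were found by the root mean square difference, each gene centred on its own mean, leaving out genes that averaged under 5 CPM. For Cxcr5 these were Tmem2 (0.174), Ccr8 (0.206) and Susd2 (0.22), and for Pdcd1 S100a11 (0.141), Il12rb1 (0.153) and Itgb1 (0.153). For Bcl6 they were Nf2 (0.048), P4htm (0.054) and Itm2c (0.06), and those of Tox2 included Il1r2 (0.234) and Cxcr3 (0.271). Sostdc1 had no neighbour that close, with Dnahc7a (0.403), Prdm1 (0.451) and LOC100861615 (0.454). Angptl2 was nearest to Atp2b4 (0.205), Serpina3f (0.209) and Fam20a (0.252), Sh2d1a to Gnb5 (0.067), Lztfl1 (0.072) and Mapre3 (0.08), and Slamf6 to Lman1 (0.052), Wbp1 (0.06) and Sla (0.065). Among the 8 genes themselves the closest pair was Bcl6 and Slamf6, at 0.131. The measure is not scaled to the size of a gene's changes, so genes that change little lie close to each other more easily. These are descriptions over 6 group means.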

How the data were processed

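RNA was sequenced from sorted Treg, 18 libraries in 6 groups of 3 by genotype, state and batch number from the labels. Tools in the submitters' processing notes were RSEM 1.2.8, STAR 2.6.0, bcl2fastq 2.17.1.14 and build mm10. Neither annotation nor strandedness was given in the sources used here. The first deposited table, made by the authors, holds expected counts per gene symbol, rounded here to whole numbers. Of the nonzero ones 29.4% were not whole. The second holds FPKM of the authors, also deposited, and served for levels between genes and for alternatives. The ribosomal gene Rn45s took 10.9 to 16.4% of each library.

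The main tests used edgeR 4.0.16 (R 4.3.3) on the counts, with TMM factors (0.9394 to 1.063), filterByExpr by group, which kept 10630 genes, 6 group means over all libraries and quasi-likelihood F tests with Benjamini-Hochberg adjustment over all tested genes in each of 12 contrasts. A call is an adjusted p under 0.05. The code was tested on simulated data. Within-batch values use log2(CPM + 0.5). Intervals and floors (3 counts) cover counting error only. DESeq2 1.42.0, limma 3.58.1 on log2(FPKM + 1) and log2(FPKM + 0.1), other filters and scalings, smaller fits, replicate blocks and the omission of each library were tried. Figures used matplotlib 3.10.9.

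The labels call the replicate number a batch, so it may pair libraries. Deviations from group means correlated at a mean of 0.207 (0.141 to 0.345) over 9 pairs that share genotype and number, at 0.0774 over 18 pairs that share state and number, and at -0.0473 over 90 pairs of different number.

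The 8 genes, the lists and the tests were chosen with earlier results of these data known. Named genes are the 8, up to 4 genes per list with the lowest p, and the 3 most alike to each. Promoter letters come from RefSeq (GRCm38.p6). The floxed gene and some other genes are not reported here.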

Additional observations from a re-analysis of the deposited data

How the results depend on the processing

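Of the 96 member results, the direction in the 3 comparisons of effector with resting cells and in effector fl/fl minus +/+ was the same under every alternative, save for Sostdc1 in fl/fl between states. The numbers of called genes over the whole table were less stable. As reported they were 674 for effector minus resting in fl/fl, 1732 for effector minus resting in fl/+, 1700 for effector minus resting in +/+, 299 for effector fl/fl minus +/+, 72 for effector fl/fl minus fl/+, 1 for effector fl/+ minus +/+, 74 for resting fl/fl minus +/+, 3 for resting fl/fl minus fl/+, 9 for resting fl/+ minus +/+, 0 for the fl/fl minus +/+ interaction, 1 for the fl/fl minus fl/+ interaction and 2 for the fl/+ minus +/+ interaction. With DESeq2 the counts that moved by over 1.5 times were 455 for effector fl/fl minus +/+, 178 for effector fl/fl minus fl/+, 17 for effector fl/+ minus +/+, 130 for resting fl/fl minus +/+, 6 for resting fl/fl minus fl/+, 41 for resting fl/+ minus +/+, 15 for the fl/fl minus +/+ interaction and 2 for the fl/fl minus fl/+ interaction. With a count minimum of 3 in the filter, chosen after seeing the data, the counts that moved by over 1.5 times were 2 for effector fl/+ minus +/+. On log2(FPKM + 1) values the counts that moved by over 1.5 times were 33 for effector fl/fl minus fl/+, 2 for effector fl/+ minus +/+ and 5 for the fl/fl minus +/+ interaction. On log2(FPKM + 0.1) values the counts that moved by over 1.5 times were 183 for effector fl/fl minus +/+, 14 for effector fl/fl minus fl/+ and 0 for the fl/fl minus fl/+ interaction. Without a filter on low counts the counts that moved by over 1.5 times were 1012 for effector minus resting in fl/fl, 830 for effector fl/fl minus +/+, 488 for effector fl/fl minus fl/+, 176 for effector fl/+ minus +/+, 315 for resting fl/fl minus +/+, 94 for resting fl/fl minus fl/+, 219 for resting fl/+ minus +/+, 246 for the fl/fl minus +/+ interaction, 133 for the fl/fl minus fl/+ interaction and 31 for the fl/+ minus +/+ interaction. With only the compared groups fitted the counts that moved by over 1.5 times were 349 for effector minus resting in fl/fl, 154 for effector fl/fl minus +/+, 4 for effector fl/fl minus fl/+, 0 for effector fl/+ minus +/+, 35 for resting fl/fl minus +/+, 6 for resting fl/fl minus fl/+ and 5 for resting fl/+ minus +/+. With the replicate block the counts that moved by over 1.5 times were 552 for effector fl/fl minus +/+, 181 for effector fl/fl minus fl/+, 34 for effector fl/+ minus +/+, 179 for resting fl/fl minus +/+, 90 for resting fl/+ minus +/+ and 3 for the fl/fl minus +/+ interaction. With the replicate block within genotype the counts that moved by over 1.5 times were 1071 for effector minus resting in fl/fl, 120 for the fl/fl minus +/+ interaction and 11 for the fl/fl minus fl/+ interaction. Leaving out each library in turn gave 266 to 791 for effector minus resting in fl/fl, 1092 to 1601 for effector minus resting in fl/+, 1215 to 1589 for effector minus resting in +/+, 31 to 648 for effector fl/fl minus +/+, 3 to 310 for effector fl/fl minus fl/+, 1 to 5 for effector fl/+ minus +/+, 6 to 154 for resting fl/fl minus +/+, 3 to 4 for resting fl/fl minus fl/+, 3 to 75 for resting fl/+ minus +/+, 0 to 33 for the fl/fl minus +/+ interaction, 0 to 0 for the fl/fl minus fl/+ interaction and 2 to 2 for the fl/+ minus +/+ interaction. Outside single omissions, uncalled follicular genes changed sign as Pdcd1 in resting fl/fl minus +/+ (0.066 on log2(FPKM + 1)), Pdcd1 in resting fl/fl minus +/+ (0.079 on log2(FPKM + 0.1)), Tox2 in resting fl/fl minus +/+ (-0.44 on log2(FPKM + 0.1)), Pdcd1 in resting fl/+ minus +/+ (0.015 on log2(FPKM + 1)), Pdcd1 in resting fl/+ minus +/+ (0.022 on log2(FPKM + 0.1)), Bcl6 in resting fl/fl minus fl/+ (-0.00076 with DESeq2), Cxcr5 in the fl/fl minus +/+ interaction (0.12 on log2(FPKM + 0.1)), Sostdc1 in the fl/+ minus +/+ interaction (-0.12 with DESeq2), Sostdc1 in the fl/+ minus +/+ interaction (-0.59 on log2(FPKM + 1)) and Sostdc1 in the fl/+ minus +/+ interaction (-0.21 on log2(FPKM + 0.1)). Leaving out 1 library also turned the sign of uncalled differences, whose ranges follow. For effector minus resting in fl/fl they ran from -3.87 to 0.52 for Sostdc1. For effector fl/fl minus fl/+ they ran from -0.20 to 0.080 for Slamf6. For effector fl/+ minus +/+ they ran from -0.16 to 0.040 for Sh2d1a and -0.61 to 0.21 for Tox2. For resting fl/fl minus +/+ they ran from -0.48 to 0.041 for Angptl2, -0.17 to 0.025 for Bcl6, -0.37 to 0.36 for Pdcd1 and -2.41 to 1.80 for Tox2. For resting fl/fl minus fl/+ they ran from -0.010 to 0.66 for Angptl2, -0.22 to 0.17 for Bcl6, -1.05 to 0.22 for Cxcr5, -0.17 to 0.36 for Pdcd1 and -1.23 to 2.87 for Tox2. For resting fl/+ minus +/+ they ran from -0.23 to 0.16 for Bcl6, -0.43 to 0.33 for Pdcd1, -0.023 to 0.085 for Sh2d1a, -0.0022 to 0.10 for Slamf6 and -2.67 to 0 for Sostdc1. For the fl/fl minus +/+ interaction they ran from -0.64 to 0.75 for Cxcr5 and -3.26 to 0.95 for Tox2. For the fl/fl minus fl/+ interaction they ran from -1.03 to 0.37 for Cxcr5 and -4.02 to 0.071 for Tox2. For the fl/+ minus +/+ interaction they ran from -0.66 to 0.0093 for Angptl2, -0.40 to 0.024 for Bcl6, -0.68 to 0.068 for Pdcd1, -0.20 to 0.0046 for Sh2d1a and -1.05 to 1.63 for Sostdc1. The cause of these moves was not tested, except that smaller fits and omissions use fewer libraries. Without the filter the adjusted p of effector fl/fl minus +/+ was 5.05e-09 for Cxcr5, 2.97e-07 for Pdcd1 and 1.1e-08 for Tox2, none of which was called as reported, and the count minimum of 3 did not call them. Fitted that way, comparisons reported with 0 of 8 called gave 6 for effector fl/fl minus fl/+, beside 488 genes called over the whole table. The fl/fl minus +/+ interaction gave 5 beside 246, and the fl/fl minus fl/+ interaction 3 beside 133. Effector fl/+ minus +/+ gave 1 (Angptl2, adjusted p = 0.000285) beside 176. Resting fl/fl minus +/+ gave 1 (Cxcr5, 0.00113) beside 315, and resting fl/+ minus +/+ 1 (Cxcr5, 0.0289) beside 219. Sh2d1a (0.04) and Slamf6 (0.00362) were then called between states in fl/fl, beside 1012. The number of genes tested without the filter is not given, so these counts have no share of all tested genes. The replicate block changed no other call of the 8 genes than those given beside Slamf6 and Sh2d1a. Depth limits Sostdc1, with 0 to 91 counts per group, and Tox2 in resting cells, with 4 to 22.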
